A study of Rattus norvegicus with 2 samples.

Results

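In a minority of the overlapping Chd7 and Sox10 peaks of rat oligodendrocytes, the Chd7 midpoint lies well to one side of the Sox10 midpoint. These off-centre pairs were taken as a Chd7 and a Sox10 peak on chromosomes 1 to 20 that overlap by at least 1 bp, with midpoints more than 200 bp apart and a Sox10 peak narrower than 1500 bp. There were 558 such pairs among the 5750 overlapping pairs of that Sox10 width (9.70%) and the 6283 overlapping pairs of the whole series. The other 5192 pairs, with midpoints no more than 200 bp apart, are called central pairs and serve as the comparison. The positions and Sox10 widths that chose the pairs are given as a description only. The 558 pairs joined 557 Chd7 peaks with 537 Sox10 peaks, so some of them share a peak and are not separate sites.

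Chromatin immunoprecipitation and sequencing (ChIP-seq) finds the stretches of DNA that a protein is bound to, directly or through other proteins, in cross-linked cells. Here the cells were primary Sprague Dawley oligodendrocyte progenitors that had been differentiated for 3 days with T3, a thyroid hormone. One group is the chromatin precipitated with an antibody against Chd7 (CST #6505) and the other that precipitated with an antibody against Sox10 (Abcam ab27655), with 1 library each and the same strain, cells and treatment in both. The labels give no genotype and no age, and no control library was used here.

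Oligodendrocytes wrap axons of the central nervous system in myelin. Sox10 is an HMG-box transcription factor that binds DNA by sequence, bends it, and is required for oligodendrocytes to mature and to express myelin genes. Chd7 belongs to the CHD family of remodelers, which use ATP to move nucleosomes, and its gene is mutated in CHARGE syndrome. A remodeler of this kind is brought to enhancers and promoters by other proteins and by histone marks, so its peak need not lie over a particular base sequence. By its title, the study concerns the interaction of both proteins in the timing of myelination and remyelination.

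The Chd7 list held 15310 peaks and the Sox10 list 38915, each with a caller score that ranks peaks within its own list and starts at 50. The depth of the libraries is unknown, and there are no replicates. The values below therefore carry no test, and intervals cover counting error over peaks only. A peak's centre is the midpoint of its deposited start and end. The position of the highest signal inside a peak was not used here, so a midpoint can differ from it.

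Off-centre did not usually mean at the edge. The Chd7 and Sox10 midpoints of the 558 pairs were separated by a median of 265.5 bp (quartiles 229.6 and 324 bp, highest 1235 bp), against 57 bp in the central pairs. On a scale where 0 is the Sox10 centre and 1 its edge, the Chd7 centre was at a median of 0.499. It lay at 0.5 or less in 281 pairs, between 0.5 and 1 in 240 pairs, and beyond the Sox10 edge in 37. The whole Chd7 peak lay inside the Sox10 peak in 419 of the 558 pairs (75.1%, 95% exact interval 71.3% to 78.6%). In these 419 pairs the nearer end of the Chd7 peak was a median of 124 bp from the Sox10 edge (quartiles 67 and 189.5 bp). In central pairs with Chd7 wholly inside this gap was 152.5 bp. In 66 members the Chd7 peak lay inside and within 50 bp of the edge, or 11.8% of the 558, beside 10.5% of all pairs under the width limit. In the median member the Chd7 centre thus lay about midway between the centre and the edge of the Sox10 peak. The 200 bp limit sets this position in part. The number of pairs fell steadily across it, from 391 at 150 to 200 bp to 228 at 200 to 250 bp and 152 at 250 to 300 bp. These counts pool all Sox10 widths, and narrow Sox10 peaks leave less room for a long distance. The median Sox10 width was 989 bp at 150 to 200 bp and 1149 bp at 250 to 300 bp. The fall in counts therefore cannot show whether a position on the flank is preferred.

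**Figure D1:**
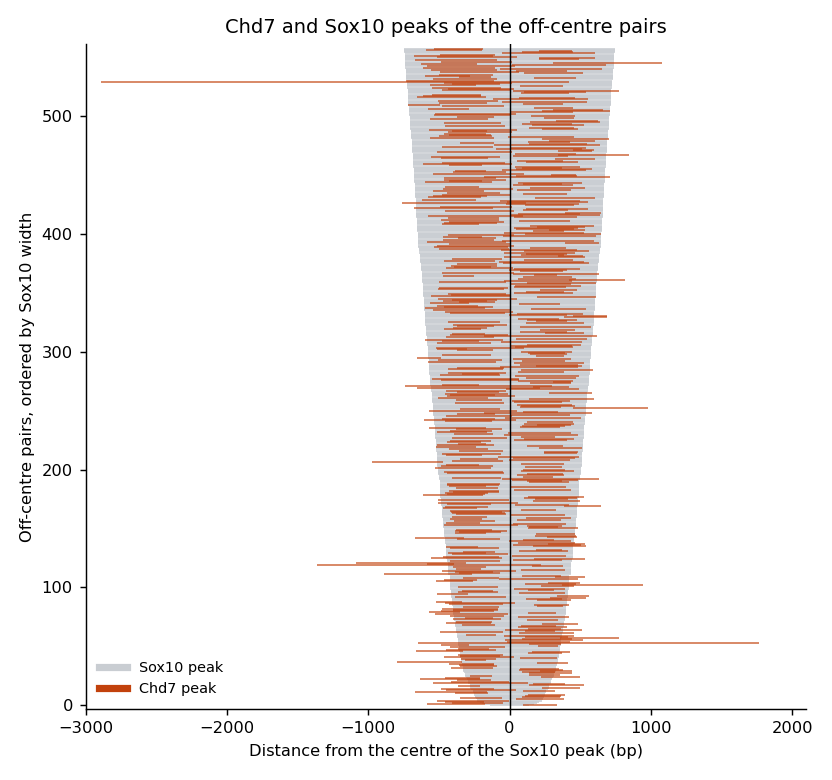
Each row is 1 of the 558 off-centre pairs, aligned on the Sox10 midpoint (distance in bp on the horizontal axis) and ordered from the narrowest Sox10 peak at the bottom to the widest at the top; grey lines are Sox10 peaks and orange lines Chd7 peaks. Most orange lines stay within the grey on one side of the centre, and those that reach beyond it are mostly on narrow Sox10 peaks.

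**Figure D2:**
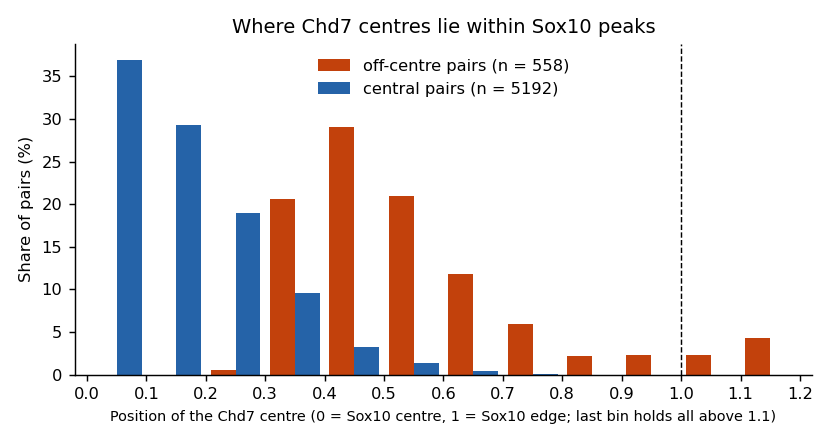
Share of pairs (%) by the position of the Chd7 centre, from 0 at the Sox10 centre to 1 at its edge (dashed line), for 558 off-centre and 5192 central pairs. Most off-centre pairs lie between 0.3 and 0.7 and few near 1, with the lower end of that range set by the 200 bp limit.

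Most off-centre Chd7 peaks left the middle of the Sox10 peak uncovered. The Chd7 peak covered the Sox10 centre in 90 of the 558 pairs (16.1%), whereas it did so in 4919 of the 5192 central pairs and in 87.1% of all pairs under the width limit. The members that reached over the centre had wide, high-scoring Chd7 peaks. Their Chd7 width had a median of 553.5 bp and their Chd7 score a median of 110.56. For the 468 pairs clear of the centre these medians were 330 bp and 64.92. The Sox10 score differed in the same direction, with medians of 581 and 300.2. A wide Chd7 peak reaches the centre more easily at a given distance, so width is part of how these subsets arise.

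The side on which Chd7 lay was even. Chd7 was on the low-coordinate side of the Sox10 centre in 281 of the 558 pairs (50.4%, 95% exact interval 46.1% to 54.6%), beside 49.6% of central pairs and 49.7% of all pairs under the width limit. The rule uses the size of the distance and not its sign. The 281 pairs on this side and the 277 on the other had median Chd7 scores of 70.89 and 68.27 and median distances of 263.5 and 265.5 bp. No strand could be assigned to these sites, so sides are those of the chromosome and not of a gene.

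The remaining 139 pairs, 24.9% of the members, had a Chd7 peak that reached past the Sox10 peak, against 5.39% of central pairs and 7.29% of all pairs under the width limit. In 138 of them it crossed a single edge, by a median of 86.5 bp (quartiles 27.5 and 144 bp), and in 1 it covered the whole Sox10 peak. A member can stay inside only if its Sox10 peak is wider than its Chd7 peak by over 400 bp. The rule therefore raises the share past an edge and favours narrow Sox10 peaks in these pairs. Sox10 score went with Sox10 width across members (Spearman's rho 0.45), and the scores below were not compared at like width. The Sox10 peaks of the 139 pairs were weaker and narrower than those of the other members. The median Sox10 score was 158.88 and the median Sox10 width 811 bp, against 427 and 1204 bp for the 419 pairs with Chd7 wholly inside. Chd7 scores were closer, with medians of 65.34 and 71.34. In the 37 pairs whose Chd7 centre lay beyond the Sox10 edge, the median Sox10 score was 91.71, below the 115.89 of the whole Sox10 list. In all 23 members with a Sox10 peak under 600 bp the Chd7 peak crossed an edge, and at that width the rule leaves room inside only for a very narrow Chd7 peak.

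The share of off-centre pairs was tied to Sox10 width. For Sox10 peaks below 500 bp it was 4.14% (11 of 266 pairs, all 11 past an edge), and for 600 to 699 bp 2.54% (20 of 787). It was 8.42% for 900 to 999 bp (64 of 760) and 40.2% for 1200 to 1499 bp (224 of 557, 95% exact interval 36.1% to 44.4%). The median Sox10 width was 1126.5 bp in off-centre pairs and 807.5 bp in central pairs. Geometry sets part of this, since a peak can be more than 200 bp off-centre and inside only if the Sox10 peak is wider than the Chd7 peak by over 400 bp. In the 3229 pairs with that room, 497 were off-centre, or 15.4%.

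Within Sox10 peaks of like width, off-centre Chd7 went with lower scores for both proteins. Score was not part of the rule, but the rule bears on it through Chd7 width. At a given Sox10 width, an off-centre Chd7 peak stays inside only if it is narrower by over 400 bp. Chd7 score went with Chd7 width across pairs (Spearman's rho 0.67 over 5750 pairs). Part of the Chd7 contrast is therefore built in. At 1200 to 1499 bp, the median Chd7 score was 78.05 (quartiles 61.4 and 110.2) in the 224 off-centre pairs and 116.42 (75.96 and 180) in the 333 central pairs. The median Sox10 score was 495 (244 and 813) against 734 (454 and 1213). At 800 to 899 bp, the Chd7 medians were 62.3 and 79.7 and the Sox10 medians 174 and 375, over 50 off-centre and 934 central pairs. The quartile ranges overlapped in both classes. The Sox10 median was lower for off-centre pairs in all 8 width classes, and the Chd7 median in 7 of 8. The exception was 500 to 599 bp, where the Chd7 median was 67.66 over 12 off-centre pairs and 64.61 over 465 central pairs.

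**Figure D3:**
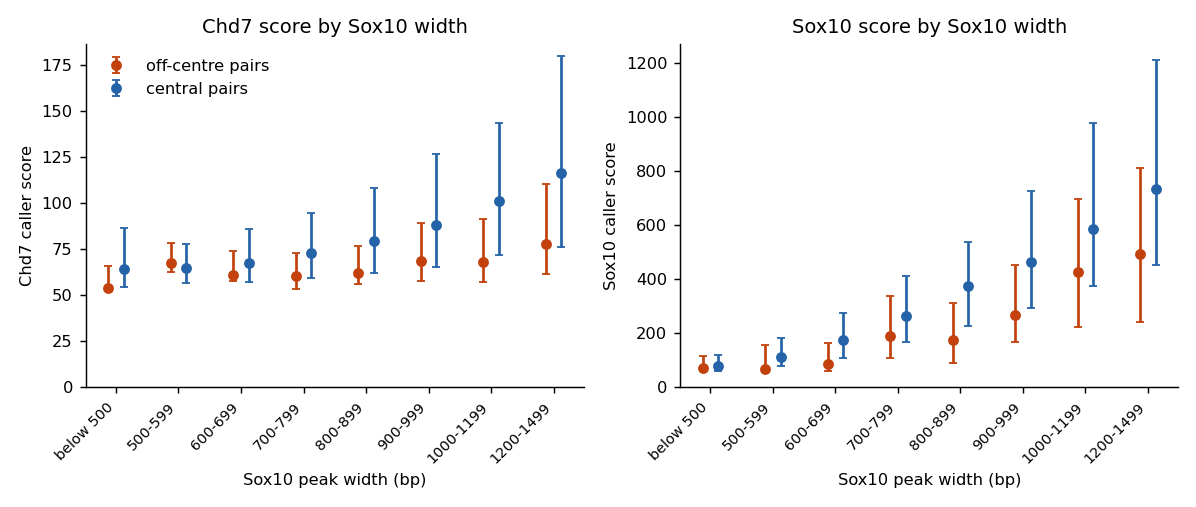
Median caller score (points) with quartiles (bars) of the Chd7 peak, left, and the Sox10 peak, right, by class of Sox10 width in bp, for off-centre (orange) and central (blue) pairs. The gap between the groups is widest in the broadest class, with Chd7 medians of 78.05 and 116.42.

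Over all widths together the Sox10 contrast had the opposite sign, but it lay within counting error. Off-centre pairs hold the wider Sox10 peaks, and Sox10 score and width went together across pairs (Spearman's rho 0.61 over the 5750 pairs, which are not replicates). The pooled median Sox10 score was 333.14 in off-centre and 305.32 in central pairs, a difference of 27.82. The 95% intervals of these medians, 291.39 to 376.27 and 294.97 to 316.11, overlapped, so the sign of the pooled difference is not settled. The mean difference within width classes was -185. For Chd7 the pooled medians were 69.72 and 77.18, a difference of -7.46, and the mean difference within classes was -28.6. In the list as a whole the median Chd7 score was 67.15. The strongest quartile of the Chd7 list supplied 130 of the 558 off-centre pairs (23.3%), against 33.3% of central pairs and 32.3% of all pairs under the width limit. The strongest quartile of the Sox10 list supplied 60.2% of off-centre pairs, beside 59.1% of all pairs.

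Much of the Chd7 score difference went with Chd7 width. Off-centre Chd7 peaks were narrower than central ones on Sox10 peaks of like width, by a mean of 98.4 bp (-98.4 bp, off-centre minus central, over the 8 classes). When pairs were classed by Chd7 width as well, the mean Chd7 score difference was -8.00 over 28 classes with at least 5 pairs of each kind, and off-centre pairs were lower in 18 of them. The Sox10 score difference was -130.4 in those classes and off-centre pairs were lower in 24. Limited to pairs with Chd7 wholly inside, the differences within 5 classes of Sox10 width alone were -32.97 for Chd7 and -191 for Sox10. When these inside pairs were classed by Chd7 width as well, the Chd7 difference was -6.66, with off-centre pairs lower in 14 of 21 classes. The Sox10 difference was then -106.6, with off-centre pairs lower in 16 of the 21. The scores of both proteins were also less alike in off-centre pairs, with a Spearman's rho of 0.20 over 558 pairs against 0.41 over 5192 central pairs, given as a description of peaks that share 1 library per protein.

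A group of members came from Sox10 peaks that carried 2 Chd7 peaks. This held for 89 of the 558 off-centre pairs (15.9%, 95% exact interval 13.0% to 19.3%), for 1.29% of central pairs and for 2.71% of all pairs under the width limit. Chd7 peaks within the list do not overlap, so a second one has to lie aside, which by itself raises this share. The 89 pairs lay on 68 Sox10 peaks with a median width of 1210 bp, and each of the 68 carried exactly 2 Chd7 peaks. In 61 of the 68 the Chd7 midpoints were on opposite sides of the Sox10 centre. The midpoints were separated by a median of 472.75 bp (quartiles 405 and 579 bp), with a median of 84.5 bp between the Chd7 peaks.

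In 21 of these 68 Sox10 peaks both Chd7 peaks were off-centre, and in all 21 they flanked the centre. Their midpoints were 471 to 911.5 bp apart, and in 19 of 21 the point midway between them lay within 100 bp of the Sox10 centre. With Chd7 on both sides, that point can lie farther off only if a Chd7 midpoint is more than 400 bp from the centre. Only 55 of all off-centre pairs lay beyond 400 bp. On the same side, the outer of Chd7 peaks that do not overlap would also have to lie farther out. The rule and the scarcity of long distances thus favour both results, which are given as a description only. An example from the 21 is the Sox10 peak on chromosome 11 at 67729409 to 67730866 (rn5, score 1512). Its Chd7 peaks at 67729599 to 67730050 (score 144.57) and 67730309 to 67730608 (score 56.66) had midpoints 313 bp below and 321 bp above the Sox10 midpoint. On chromosome 4 the Sox10 peak at 179423763 to 179425224 (score 1486) had Chd7 at 437 bp below (score 50.72) and 312 bp above (score 119.51). The ratio of the higher to the lower Chd7 score, which is at least 1 by construction, had a median of 1.98 over the 21 and was under 1.5 in 8 of them. Over all 68 its median was 1.55, with 32 under 1.5.

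**Figure D4:**
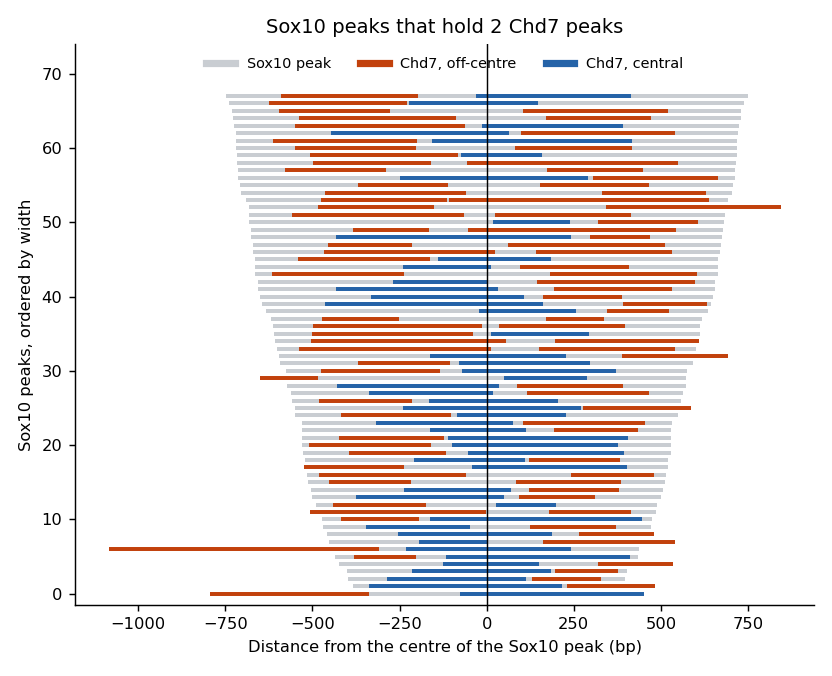
The 68 Sox10 peaks (grey) with 2 Chd7 peaks and at least 1 off-centre pair, aligned on the Sox10 midpoint with distance in bp and ordered by width; off-centre Chd7 peaks are orange and central ones blue. In 61 of 68 rows the Chd7 midpoints are on opposite sides of the centre, and 21 rows have 2 orange peaks.

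The other 47 Sox10 peaks held 1 off-centre and 1 central Chd7 peak, which allows both positions to be compared at the same Sox10 width and score. The off-centre Chd7 peak had the lower score on 38 of 47 Sox10 peaks (80.9%, 95% exact interval 66.7% to 90.9%). Its median score was 61.59 (quartiles 54.28 and 77.24), against 84.68 (70.32 and 111.6) for the central one, and the median ratio of off-centre to central was 0.724. It was also the narrower of the 2 on 35 of 47, with median widths of 301 and 398 bp. Chd7 score and Chd7 width went together across pairs (Spearman's rho 0.67 over 5750 pairs), and Chd7 width was not held equal here. The central Chd7 peaks were themselves a median of 116.5 bp from the Sox10 midpoint. Among the 9 exceptions, chosen here after their values were seen, was the Sox10 peak at 187839291 to 187840653 on chromosome 1 (score 67.95). There the off-centre Chd7 peak scored 696 and the central one 81.96, in a 1 Mb window with 30 or more Chd7 peaks. Another exception, outside such windows, was the Sox10 peak at 134726358 to 134727796 on chromosome 4 (score 1864). Its Chd7 scores were 153.17 off-centre and 109.31 at the centre.

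**Figure D5:**
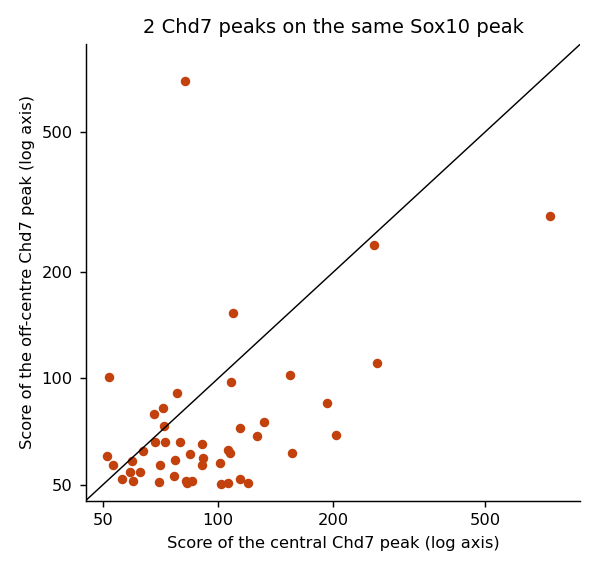
Caller score of the off-centre Chd7 peak against that of the central Chd7 peak (both log axes) on the 47 Sox10 peaks that hold 1 of each; the line marks equal scores. On 38 of 47 the point lies below the line.

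Neighbouring Sox10 peaks were about as frequent on the Chd7 side as on the opposite side. Another Sox10 peak lay within 2 kb of the edge of the Sox10 peak on either side in 103 of the 558 off-centre pairs (18.5%, 95% exact interval 15.3% to 21.9%), against 13.5% of central pairs and 14.0% of all pairs under the width limit, leaving out pairs with equal midpoints, which have no side. It was on the Chd7 side in 55 pairs and on the opposite side in 56, with 8 pairs counted in both. Within 1 kb the counts were 40 and 36, and within 5 kb 95 and 98. The opposite side is an imperfect control for its own pair. The 21 Sox10 peaks with an off-centre Chd7 peak on both sides enter once from each side. A neighbour of theirs is thus counted on the Chd7 side and on the opposite side. In 6 members the Chd7 peak touched 2 Sox10 peaks, which by itself tends to place a Sox10 neighbour on the Chd7 side. A further Chd7 peak outside the Sox10 peak lay within 2 kb on either side in 30 members (5.38%, 95% exact interval 3.66% to 7.59%), against 2.98% of central pairs and 3.21% of all pairs under the width limit. It was on the Chd7 side in 16 members and on the opposite side in 17. The neighbour shares of off-centre and central pairs were not compared at like Sox10 width, and off-centre pairs hold the wider Sox10 peaks.

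A small subset lay in megabases crowded with Chd7 peaks. Windows of 1 Mb with 30 or more Chd7 peaks held 38 of the 558 off-centre pairs (6.81%, 95% exact interval 4.86% to 9.23%), against 2.47% of central pairs and 2.89% of all pairs under the width limit. Shares in these windows were not compared at like Sox10 width, and off-centre pairs hold the wider Sox10 peaks. Members in these windows had higher Chd7 and lower Sox10 scores than the other members: the median Chd7 score was 85.3 and the median Sox10 score 79.18, against 68.7 and 367 in the 520 members elsewhere. Their median distance was 320.25 bp against 262.25 bp. Outside these windows the off-centre Chd7 peak had the lower score on 35 of 41 Sox10 peaks with 1 off-centre and 1 central Chd7 peak.

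Every one of chromosomes 1 to 20 had members. Their share among pairs under the width limit ran from 2.99% on chromosome 19 (4 of 134, 95% exact interval 0.819% to 7.47%) to 12.7% on chromosome 2 (68 of 534, 10.03% to 15.9%). The intervals of these extremes do not overlap, but they were picked from 20 chromosomes after their values were seen.

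In 7 of the 10 members that ranked best in both scores, the Chd7 peak reached over the Sox10 centre. It did so in 16.1% of all members and 87.1% of all pairs under the width limit. The ranking uses Chd7 score, which went with Chd7 width across members (Spearman's rho 0.63), and wide Chd7 peaks reach the centre more easily. The ranking thus favours this result. The first of the 10 was on chromosome 14. Chd7 at 13369794 to 13370355 (rn5, score 326) lay inside a Sox10 peak at 13369552 to 13371019 (score 1857), with its midpoint 211 bp below. On chromosome 15, Chd7 at 106876026 to 106876492 (score 177) lay 202 bp below the midpoint of Sox10 at 106875740 to 106877182 (score 1652), close to the 200 bp limit. Chromosome 4 held Chd7 at 134726463 to 134726876 (score 153.17), 407.5 bp below the midpoint of the Sox10 peak named above that also has a central Chd7 peak.

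On chromosome 7, Chd7 at 31272923 to 31273552 (score 266) was 325.5 bp above the midpoint of Sox10 at 31272253 to 31273571 (score 1223), and ended 19 bp short of its edge. A second site of that chromosome had Chd7 at 97007231 to 97008271 (score 269), which crossed the edge of Sox10 at 97007410 to 97008526 (score 1162) by 179 bp. On chromosome 6, Chd7 at 137902659 to 137903276 (score 176) began 13 bp inside Sox10 at 137902646 to 137903770 (score 1447). These 3 are the members of the leading group in which Chd7 came nearest to an edge or passed it.

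Chromosome 3 had 2 of the leading pairs, whose Chd7 peaks covered 92277281 to 92277758 (score 215) and 142920267 to 142920842 (score 192). The Chd7 peak of the chromosome 8 pair covered 2990680 to 2991253 (score 272). The last of the group is the chromosome 11 pair described above, with Chd7 scored at 144.57. The Sox10 scores of the 10 leading pairs ran from 1020 to 1864 and their distances from 202 to 407.5 bp. In 9 of the 10 the Chd7 peak lay wholly inside the Sox10 peak, beside 75.1% of all members and 92.7% of all pairs under the width limit.

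The members with the greatest distances were of another kind, with low Sox10 scores. The farthest, on chromosome 9, joined a Chd7 peak of 3314 bp at 11280960 to 11284273 (score 94.5) to a Sox10 peak at 11283124 to 11284579 (score 122.47), with midpoints 1235 bp apart. On chromosome 6, Chd7 at 111967965 to 111968470 (score 70.23) overlapped Sox10 at 111968429 to 111969452 (score 118.14) by 42 bp. On chromosome 9, Chd7 at 7505568 to 7506099 (score 91.58) overlapped Sox10 at 7504580 to 7505661 (score 53.62) by 94 bp. In the latter 2 pairs the peaks touch only at their ends.

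The last 2 of the 5 farthest pairs share 1 Chd7 peak, which covers 2117264 to 2118038 of chromosome 7 (score 100.88). It bridged Sox10 peaks at 2116218 to 2117696 (score 60.08) and 2117911 to 2118786 (score 91.58). In all, 5 Chd7 peaks among the members touched 2 Sox10 peaks.

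The limits of the rule cut through a continuous range. The 4 members just past 200 bp, all at 200.5 bp, had Chd7 scores from 51.98 to 99.47 and Sox10 scores of 63.76, 117.12, 156.94 and 3100. The 4 pairs just short of it, at 200 bp, had Chd7 scores from 54.54 to 100.55 and Sox10 scores from 229 to 390. The widest Sox10 peaks of the members were 1499 bp, both on chromosome 20, with distances of 393 and 360.5 bp. The next above it were 3 pairs with Sox10 peaks of 1502 bp, on chromosomes 2, 11 and 18, with distances of 341, 218.5 and 392 bp. Medians moved gradually with distance: the Chd7 score was 74.04 at 150 to 200 bp, 72.9 at 200 to 250 bp, 66.07 at 300 to 400 bp and 64.32 beyond 400 bp. The Sox10 score stayed between 340 and 383 from 150 to 400 bp and was 122.48 in the 55 pairs beyond 400 bp.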

How the data were processed

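Per the submitters' processing notes, the tools were CASAVA, Bowtie2 and MACS, on build rn5. Not given in the sources used here are their versions and settings and any control library. For each antibody the authors deposited a list of peaks, each with its coordinates and a caller score of unstated scale. Scores were used only to rank or describe peaks within a list. The lists give no read counts, so depth is unknown.

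Pairs, distances and neighbours were computed in Python 3.11.15 with numpy 2.4.6 and pandas 2.3.3, and shares received 95% exact (Clopper-Pearson) intervals with scipy 1.17.1. The pair count equalled that of bedtools 2.31.1, and the code was tested on simulated data with planted off-centre pairs. Coordinates are 1-based on rn5. Sox10 width classes were below 500 bp, steps of 100 bp to 1000 bp, 1000 to 1199 bp and 1200 to 1499 bp. A mean within classes weights each class by its off-centre pairs.

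The pairs, measures and rules were chosen with earlier results of these data known. Named pairs are the 10 off-centre pairs ranked best on the mean of both score ranks, the 5 with the greatest distance, and those next to each limit, ties included; other pairs were named after their values were seen. No genome or annotation of rn5 was used here, so no pair is assigned to a gene and no sequence is shown.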

Additional observations from a re-analysis of the deposited data

How the results depend on the processing

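Limits of 150 and 300 bp gave 949 and 178 off-centre pairs, a Sox10 limit of 1000 bp 194, the stronger 50% of both lists 249, and a distance above 0.3 of the Sox10 width 191, against 558. In the order 150 bp, 300 bp, 1000 bp, stronger 50%, the share wholly inside was 79.8%, 60.7%, 44.8% and 84.3% (75.1% in the report), the share past an edge 20.2%, 39.3%, 55.2% and 15.7% (24.9%), and the share on Sox10 peaks with another Chd7 peak 12.1%, 28.7%, 7.22% and 6.02% (15.9%). In the order 300 bp, 1000 bp, stronger 50%, the median Chd7 score was 65.37, 63.96 and 90.57, and the median Sox10 score 271.5, 178 and 516. The share with a Sox10 neighbour on the Chd7 side was 7.17% within 1 kb, 17.03% within 5 kb and 3.21% in the stronger 50%, against 9.86%. The pooled Chd7 difference of -7.46 was -11.31 at 300 bp and -28.6 within width classes, and stayed negative in all 8 alternatives. The pooled Sox10 difference of 27.82, whose sign is not settled, was 76.88 in the stronger 50%. It was -36.76 at 300 bp, -71.6 below 1000 bp and -185 within width classes. The cause of the change at 300 bp was not tested. All other alternatives stayed within the 95% interval of the reported value or, for counts, within 1.5 times. For the pooled score differences these intervals were -10.94 to -3.96 for Chd7 and -13.93 to 70.95 for Sox10. They hold the error of the off-centre median only, with the central median taken as fixed. Adding X, leaving out Sox10 peaks with several Chd7 peaks, the score differences between off-centre and central pairs with their width classes, and the count of shared Sox10 peaks outside dense windows were chosen after seeing the data. The side of Chd7 stayed between 49.4% and 53.1% low. The planned results on transcription starts and motifs need an rn5 genome, not used here, and were left out with their alternatives. With single libraries no replicate could be left out. No paired analysis was possible because there are no replicates. Neither list holds peaks that score under 50, so a Sox10 peak with 1 called Chd7 peak may carry a weaker second one.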

Other observations

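Chromosome X lies outside the rule and gave 9 further pairs of the same kind among 64 pairs under the Sox10 width limit (14.1%, 95% exact interval 6.64% to 25.02%). Their distances ran from 207 to 450.5 bp, and in 8 of the 9 the Chd7 peak lay wholly inside the Sox10 peak. Both Chd7 peaks on the Sox10 peak at 366013 to 367215 (rn5, score 482) were among them, at 366122 to 366571 (score 72.31) and 366660 to 367146 (score 1156), with midpoints 267.5 bp below and 289 bp above the Sox10 midpoint. On chromosomes 1 to 20, another 341 overlapping pairs had midpoints more than 200 bp apart but a Sox10 peak of 1500 bp or wider. They were 341 of the 458 pairs of that width, which are not described here.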
